A study of Mus musculus with 68 samples.

Results

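Ifi202b, Ifi203, Ifi204 and Aim2 are members of the Ifi200 (HIN-200) gene family, and Fcgr2b is an Fc receptor gene. All 5 lie on distal chromosome 1 of the mouse. Their transcripts were followed in mammary tumours through every probe set (a group of short probes for 1 transcript on the array) whose annotation lists at least 1 of the genes. They are 5 of 18194 genes that have a probe set of their own, and their probe sets were 14 of 45101, of which 9 listed 1 gene and 5 listed several. The tumours arose without further treatment in mice carrying the MMTV-PyMT transgene, polyoma middle T driven by the mouse mammary tumour virus promoter, which is active in mammary epithelium. The animals came from crossing NZB with PyMT mice and the offspring with FVB mice. Total RNA of each tumour was hybridised to an Affymetrix array, and values are log2 intensities.

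The 68 arrays form a single group with no normal gland or untreated control, and results are given over 56 arrays from 56 different animals. The other 12 arrays had a mean of at least 8.97 over 3 control probe sets for 18S ribosomal RNA, against at most 6.84 in the arrays used. The arrays used fell into 3 sets of 39, 9 and 8 (array sets 1, 3 and 4), recognised from 44 probe sets on 14 chromosomes that separated set 3 without overlap and 120 on 18 that separated set 4. All 11 mammary epithelial markers were measured, with gene means from 8.09 to 12.4. Whether each tumour was 1 lesion or a pool, the age of the mice and their genotypes at these loci were not given in the sources used here. No technical repeats enter, so p-values measure the spread between animals.

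The Ifi200 proteins bind nucleic acids and are induced by interferons, the cytokines of antiviral defence. Aim2 senses DNA in the cytosol and assembles an inflammasome, while Ifi202b lacks the pyrin domain that Aim2 uses for this, and can bind DNA without assembling one. Ifi202b is a candidate gene of an NZB lupus interval on chromosome 1, and Ifi204 and Ifi203 are further nuclear or cytosolic members of the family. Fcgr2b is the inhibitory receptor for immunoglobulin G on B cells and myeloid cells, and strains including NZB carry promoter variants of it.

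RefSeq promoter windows (build GRCm38.p6) were found for 4 of the 5 members, and Ifi204 had no entry. The 250 bases before the start are shown because the results turn on which members follow interferon genes and which follow macrophage genes. Capitals mark matches, on either strand, to the core of an interferon response element (GAAA repeated after any 2 bases), to a gamma activated site core (TTCNNNGAA) or to a core for the myeloid factor PU.1 (GAGGAA). No match of one of these overlaps another in the windows shown. Ifi203 has a pair of start sites in RefSeq, and the window with a match is the one printed.
Ifi202b (chr1:173982845-173983094, minus strand): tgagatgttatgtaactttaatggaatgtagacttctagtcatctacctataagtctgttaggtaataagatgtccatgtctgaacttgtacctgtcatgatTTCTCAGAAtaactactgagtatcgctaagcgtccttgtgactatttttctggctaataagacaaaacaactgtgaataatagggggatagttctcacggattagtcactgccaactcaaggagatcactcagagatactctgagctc
Ifi203 (chr1:173942493-173942742, minus strand): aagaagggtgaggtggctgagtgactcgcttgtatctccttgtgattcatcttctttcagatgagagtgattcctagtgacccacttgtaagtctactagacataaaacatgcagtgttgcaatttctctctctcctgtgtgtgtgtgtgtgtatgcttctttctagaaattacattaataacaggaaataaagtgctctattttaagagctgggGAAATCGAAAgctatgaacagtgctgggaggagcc
Aim2 (chr1:173420354-173420603, plus strand): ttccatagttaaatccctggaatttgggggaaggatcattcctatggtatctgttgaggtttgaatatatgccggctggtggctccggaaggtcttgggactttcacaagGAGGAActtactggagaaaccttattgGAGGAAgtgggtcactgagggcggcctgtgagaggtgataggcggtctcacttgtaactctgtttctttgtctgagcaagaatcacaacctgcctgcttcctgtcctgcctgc
Fcgr2b (chr1:170976072-170976321, minus strand): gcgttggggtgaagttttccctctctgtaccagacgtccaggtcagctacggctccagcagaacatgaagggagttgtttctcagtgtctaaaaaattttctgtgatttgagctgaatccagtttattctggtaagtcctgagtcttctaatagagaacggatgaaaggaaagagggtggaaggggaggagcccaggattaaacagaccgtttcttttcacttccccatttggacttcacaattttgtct
The Ifi203 window held 1 interferon response element core, GAAATCGAAA, at positions -35 to -26 from the start. That core was in 2.98% of all 32851 windows, and in 9 of the 26 genes of the type I interferon list that had a window. The Ifi202b window held 1 gamma activated site core, TTCTCAGAA, at positions -148 to -140, a core found in 7.02% of all windows. The Aim2 window held 2 PU.1 cores, which occurred in 23.3% of all windows, and the Fcgr2b window held none of the 3 motifs. Among other family members, Ifi205, Ifi207, Ifi211 and Mndal each had the interferon core in a window, and Ifi209 did not. These letters are a description of the reference strain, and binding was not measured.

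Ifi202b varied more between tumours than nearly any other transcript. Its probe set 1421551_s_at ran from 6.06 over a median of 9.31 to 10.77 (mean 8.96, SD 1.18, n = 56), and this SD exceeded that of 99.2% of the 25459 probe sets tested, whose median SD was 0.24. The second Ifi202b probe set, 1457666_s_at, also lists LOC100044068 and ran from 5.87 over 9.53 to 10.98. Its correlation with the first was 0.98. The highest and the lowest tumour were more than 4 log2 units apart on either probe set.

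Ifi204 was next in spread among the members with a probe set of their own. Probe set 1419603_at ran from 3.90 over a median of 5.50 to 7.18 (mean 5.56, SD 0.64), a larger SD than 94.6% of tested probe sets. Probe set 1452348_s_at lists Mndal, Ifi211, Ifi205 and Ifi204 and ran from 4.01 over 6.80 to 7.96 (SD 0.80). Because several genes share its probes, its signal cannot be divided between them. On neither did a split into 2 sides reach the distance of 4.5 used as a call further on (2.74 and 2.54). Ifi202b did not reach it on the same values either (3.63).

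Fcgr2b was measured by 5 probe sets. Probe set 1435477_s_at ran from 7.74 over a median of 8.57 to 9.86 (mean 8.58, SD 0.41). Probe sets 1435476_a_at, 1451941_a_at and 1455332_x_at had SDs of 0.30, 0.40 and 0.37, and the correlations among these 4 lay between 0.86 and 0.95. The fifth, 1447622_at, stayed between 2.21 and 3.01 and correlated with them at -0.16 to -0.12. That probe set did not follow the others.

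Aim2 had a single probe set, 1426619_at, at 2.86 to 3.91 with a median of 3.32 (SD 0.18). It lay below the filter for low signal, which asked that the 95th percentile of a probe set exceed 5.42, the median of all values. Of the 14 member probe sets 11 passed that filter. The other 3 were Aim2, Fcgr2b 1447622_at and 1425008_a_at, and their values are given from fits without it.

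Ifi203 gave different answers by probe set. The only one listing Ifi203 alone, 1442828_at, ran from 5.77 over 6.12 to 6.38 (SD 0.13), and 5.93% of tested probe sets varied less. Probe set 1451567_a_at, which lists LOC102641031, LOC100862473, Ifi203-ps and Ifi203, ran from 4.87 over 7.77 to 9.44 (SD 1.24). Probe sets 1448775_at and 1425008_a_at list LOC100862473, Ifi203-ps and Ifi203, and ran from 4.94 over 5.62 to 7.09 and from 4.02 over 4.58 to 6.14. The wide one correlated with Ifi202b at 0.97 and with the other 3 at -0.17 to 0.02. The middle pair correlated with each other at 0.84. No level can therefore be given for Ifi203 as such.

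**Figure D1:**
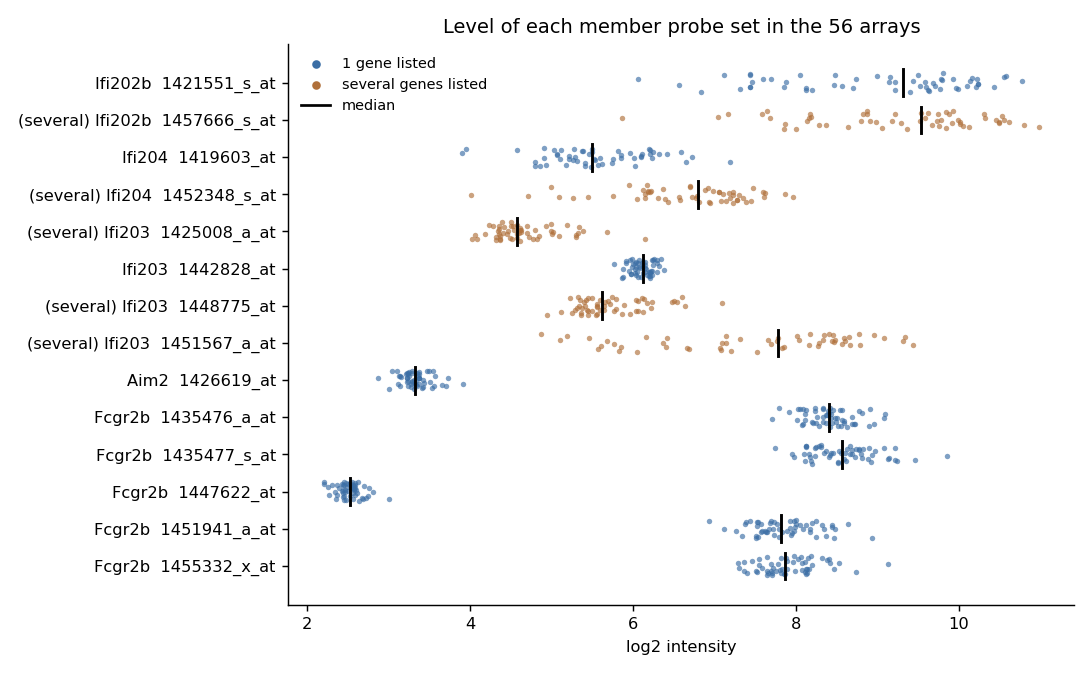
Log2 intensity (x axis) of each member probe set (rows) in the 56 arrays. Each point is an array and the black bar the median, blue where 1 gene is listed and brown where several are. Ifi202b 1421551_s_at spans 6.06 to 10.77 while Ifi203 1442828_at spans 5.77 to 6.38.

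The tumours were divided into 2 bands of Ifi202b, a division that did not reach the call on the deposited values. A least-squares split of the level put 23 tumours between 6.06 and 8.73 (mean 7.72, SD 0.69) and 33 between 8.99 and 10.77 (mean 9.82, SD 0.45), with a gap of 0.26. Ashman's D, which divides the gap between side means by the spread inside the sides, was 3.63, below the 4.5 used as the call. In array set 1 alone it was 4.61, above that threshold. At that threshold 0.46% of tested probe sets were called. The side sizes did not differ from equal by an exact binomial test (two-sided p = 0.229). The cut was drawn from these same levels, so the test cannot tell 2 equal classes from an even spread. Ifi203 1442828_at, which varied little, gave p = 0.689 in the same binomial test.

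Both bands held tumours with low and with high values of the interferon score. This score is the mean standardised level of 34 genes of the type I interferon response, from which the members were left out, scaled to SD 1. When a straight line on the score was first taken out of every probe set, a step chosen after seeing the data, D for Ifi202b rose to 5.28 and the gap to 0.80. The same 23 and 33 tumours stood on each side (56 of 56 agreed). After that step 0.401% of tested probe sets passed 4.5. Probe set 1451567_a_at reached 5.43 with an identical division of the 56 tumours, and 1457666_s_at reached 4.09 with 55 of 56 in agreement. D of the remaining 11 member probe sets lay between 2.05 and 3.18. Their sides matched the bands, in the better orientation, in 28 to 47 of 56 tumours. The count was 40 for Ifi204 1419603_at and 47 for 1452348_s_at.

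Within each band Ifi202b rose with the interferon score. In the lower band the slope was 0.47 ± 0.11 log2 units per SD of the score (SE, n = 23; r = 0.69, rho = 0.73, and r = 0.76 without the 2 arrays farthest from the median score). In the upper band it was 0.36 ± 0.046 (n = 33; r = 0.82, rho = 0.81, and 0.76 without 2 arrays). The bands were drawn from these levels, so the values are a description, and whether the 2 slopes differ was not tested. Within the lower and the upper band Ifi202b correlated with Ifi204 at 0.93 and 0.76, with Aim2 at 0.52 and 0.31, with Fcgr2b 1435477_s_at at 0.58 and 0.17, and with Ifi203 1442828_at at 0.049 and 0.088. The score spanned -1.72 to 1.59 in the lower band and -1.85 to 1.93 in the upper. The bands divided array set 1 into 14 and 25, array set 3 into 4 and 5, and array set 4 into 5 and 3, so neither band belonged to one set.

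**Figure D2:**
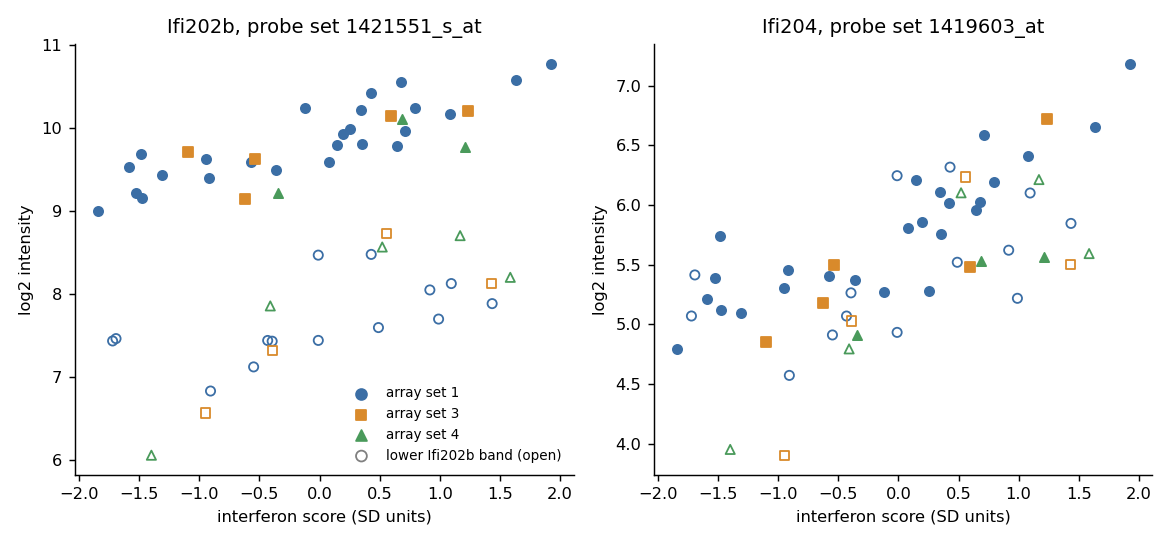
Log2 intensity (y axes) of Ifi202b (left) and Ifi204 (right) against the interferon score in SD units (x axes), 1 point per array, shaped and coloured by array set. Open points are the 23 arrays of the lower Ifi202b band and filled points the 33 of the upper. Ifi202b rises along the score within both bands, and whether the 2 slopes differ was not tested. Ifi204 rises too, and its values overlap between the bands, with means of 5.37 in the lower and 5.70 in the upper.

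Each probe set was then fitted on the interferon score with limma, with Benjamini-Hochberg adjustment over all 25459 probe sets. Ifi204 rose with the score, by 0.44 ± 0.063 log2 units per SD (SE; limma, adjusted p = 6.6e-07). Probe set 1448775_at rose by 0.24 ± 0.049 (adjusted p = 0.00148). These were 2 of the 11 member probe sets tested, where 3.14% of all probe sets were called. Without the filter 1425008_a_at rose by 0.21 ± 0.048 (limma, adjusted p = 0.00633, 1.44% called).

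The Ifi202b slope over all 56 tumours was 0.34 ± 0.15 and did not pass (limma, adjusted p = 0.229). The slopes of 1457666_s_at and 1451567_a_at were 0.37 ± 0.14 and 0.41 ± 0.16 (adjusted p = 0.13 and 0.136). With the level of Nvl added as a covariate, a chromosome 1 gene described below and chosen after seeing the data, Ifi202b rose by 0.37 ± 0.08 (adjusted p = 0.00243). Under that model 1451567_a_at rose by 0.44 ± 0.087 and 1457666_s_at by 0.39 ± 0.083 (limma, adjusted p = 0.000509 and 0.00165, 3.65% of probe sets called). Since Nvl was chosen for its relation to Ifi202b, these values are not independent evidence. The error of the slope was smaller with the band-tracking gene in the model, and its size moved little.

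The 4 bright Fcgr2b probe sets did not follow the interferon score, with slopes of 0.025 to 0.05 (SE 0.04 to 0.055; limma, adjusted p = 0.613 to 0.881). The 95% interval of the 1435477_s_at slope ran from -0.064 to 0.15. Ifi203 1442828_at had a slope of -0.00032 ± 0.019 (adjusted p = 0.997). Aim2 had 0.051 ± 0.024 without the filter (adjusted p = 0.359).

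**Figure D3:**
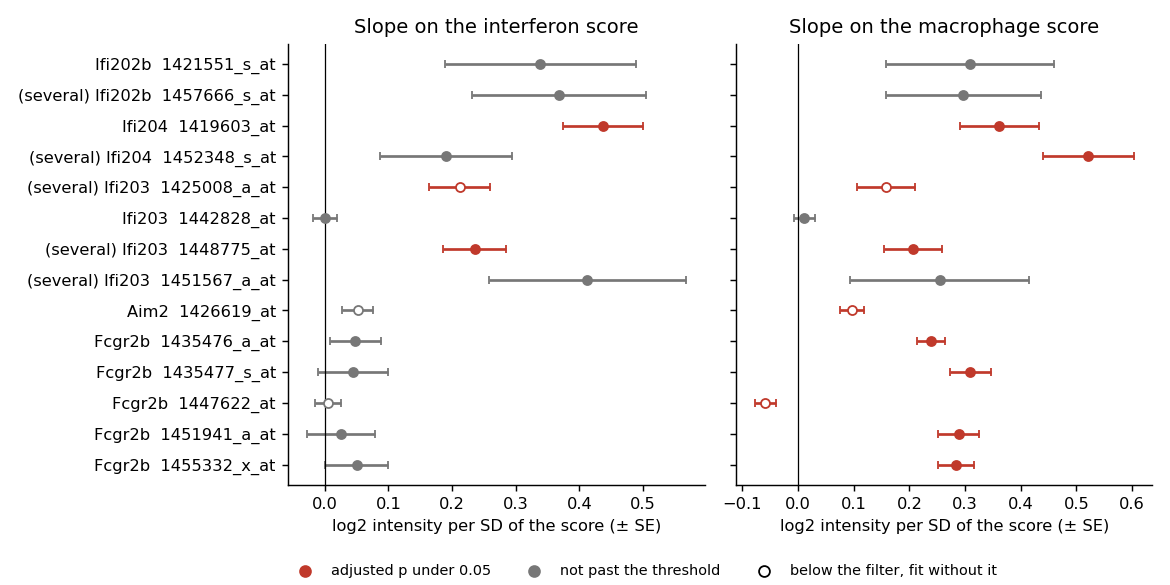
Slope (x axes, log2 intensity per SD of the score, bars are SE) of each member probe set (rows) on the interferon score (left) and the macrophage score (right) over 56 arrays. Red marks adjusted p under 0.05 and open points probe sets below the filter; Ifi204 and 1448775_at are red in both panels, and the 4 bright Fcgr2b probe sets only in the right one.

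The macrophage score was built the same way from 17 markers of these phagocytes, such as Cd68, Csf1r and Adgre1. In bulk tumours, fewer macrophages and less RNA per macrophage cannot be told apart. All 4 bright Fcgr2b probe sets rose with this score, by 0.24 ± 0.025, 0.31 ± 0.037, 0.29 ± 0.037 and 0.28 ± 0.032 log2 units per SD for 1435476_a_at, 1435477_s_at, 1451941_a_at and 1455332_x_at (limma, adjusted p = 3.43e-11 to 9.85e-09). The score moved with much of the array, as 25.2% of probe sets were called. Ifi204 rose by 0.36 ± 0.071 (adjusted p = 8.66e-05), 1452348_s_at by 0.52 ± 0.082 (1.44e-06) and 1448775_at by 0.21 ± 0.052 (0.00208). Of the 11 tested member probe sets 7 were called.

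Without the filter Aim2 rose by 0.097 ± 0.021 with the macrophage score (limma, adjusted p = 0.000667, 17.3% called). Probe set 1425008_a_at rose by 0.16 ± 0.051 (adjusted p = 0.025). The dim Fcgr2b probe set 1447622_at fell by 0.059 (SE 0.019, adjusted p = 0.0204). Ifi202b had a slope of 0.31 ± 0.15 (adjusted p = 0.127), and Ifi203 1442828_at 0.011 ± 0.019 (adjusted p = 0.703).

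With both scores in 1 model, Ifi204 kept a slope on each, 0.37 ± 0.054 on interferon (limma, adjusted p = 8.5e-07, 1.91% called) and 0.27 ± 0.054 on macrophages (0.000102, 23.1% called). Fcgr2b 1435477_s_at had 0.32 ± 0.038 on macrophages (2.66e-09) and -0.03 ± 0.038 on interferon (0.799). Probe set 1448775_at rose with both (0.20 ± 0.047, adjusted p = 0.00782, and 0.16 ± 0.047, 0.00888). Probe set 1452348_s_at rose with the macrophage score alone past the threshold (0.50 ± 0.084, adjusted p = 6.03e-06, against 0.073 ± 0.084, 0.771), and whether its 2 slopes differ was not tested.

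The family's other members were sparsely measured. Of 15 listed HIN-200 genes only Ifi209 had a 1-gene probe set past the filter, and it ran from 3.97 over 5.42 to 6.83. It rose with the interferon score by 0.43 ± 0.075 (limma, adjusted p = 5.05e-05) and with the macrophage score by 0.41 ± 0.077 (4.23e-05), and its slope on the Ifi202b level was 0.012 ± 0.08 (0.995). Ifi207, Ifi213 and Mndal were below the filter, with medians of 2.21 to 4.18.

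Of the other Fc receptor genes and their partners, 8 were measured and all 8 rose with the macrophage score, with which 25.2% of all probe sets moved. Fcgr3, an activating immunoglobulin G receptor, rose by 0.41 ± 0.02 (limma, adjusted p = 3.14e-23). Fcer1g, its signalling chain, rose by 0.33 ± 0.018 (6.87e-22), but it is one of the genes of the score. Inpp5d, the phosphatase that Fcgr2b recruits, rose by 0.26 ± 0.02 (8.29e-16). Syk, the kinase of the activating receptors, rose by 0.26 ± 0.029 (2.18e-10). The remaining 4 were Fcgr1 (0.37), Fcgrt (0.40), Fcgr4 (0.14) and Fcrl1 (0.21). With the interferon score, where 3.14% of all probe sets moved, 2 of the 8 rose, the activating receptors Fcgr4 (0.13 ± 0.028, adjusted p = 0.00279) and Fcgr1 (0.21 ± 0.05, 0.00849).

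Genes most like each member were found by fitting every probe set on the member's level. With Ifi204, 33 of the 34 type I interferon genes rose, where 4.39% of all probe sets rose and 9.13% moved in either direction. Their median slope was 0.57 log2 units per log2 unit of Ifi204, against -0.011 over all probe sets. Trim30a, an interferon-induced ubiquitin ligase family member, had a slope of 0.995 ± 0.12, and Isg20 was the gene that did not pass (0.11 ± 0.069, adjusted p = 0.339). All 14 interferon gamma response genes rose too, as did 14 of 17 macrophage markers, among them Ctss (0.37 ± 0.055), a lysosomal protease. Other lists held rising genes: T and NK cell (5 of 8), dendritic cell (4 of 8), and fibroblast and matrix (5 of 9). Fewer rose among neutrophil (2 of 6), endothelial (2 of 10), B cell (1 of 8) and mast cell (1 of 5) markers. Mammary epithelial markers gave 0 of 11. The r of Ifi204 was 0.56 with the macrophage score, 0.56 with the T and NK list score and 0.58 with the dendritic list score. How much each cell type contributes to Ifi204 was not tested. The count of called probe sets was 2325 over the 56 arrays, 414 in array set 1 alone and 679 without the 2 tumours farthest from the Ifi204 median, and in place of 1419603_at the shared probe set 1452348_s_at called 0 of the 34 interferon genes.

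The genes most like Ifi204 over the 56 tumours were interferon-induced GTPases and related genes. Gbp2 led (r = 0.78, slope 0.60 ± 0.064; limma, adjusted p = 3.23e-09), then Trim12c (r = 0.79), Ifi47 (0.77), Ms4a4c (0.77), Gbp6 (0.76), Iigp1 (0.75), Parp14 (0.75) and Gbp7 (0.75). Gbp2, Gbp6 and Gbp7 are guanylate-binding proteins, and Ifi47 and Iigp1 are immunity-related GTPases. Falling with Ifi204 were Phgdh of serine synthesis (slope -0.29 ± 0.05), Mmgt1 (-0.20), Bdh1 (-0.48) and Hunk (-0.50). Of 11 mitosis genes 9 fell. Of 15 DNA sensing and inflammasome genes 7 rose, led by Zbp1 (0.545 ± 0.072), a nucleic acid sensor also in the interferon list, and Naip2 (0.35 ± 0.056).

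With Ifi202b far fewer probe sets passed than with Ifi204. Of all probe sets 21 passed (0.0825%; 1519 at an unadjusted p under 0.05), and none of the 34 type I interferon genes was among them in the limma fit. At so small a share, 0 of 34 says little about these genes. All 34 had slopes above 0, with a median of 0.13 against -0.0032 over all probe sets, and the steepest by test was Zbp1 (0.14 ± 0.052, adjusted p = 0.725). Of the 21, 5 were member probe sets: Ifi202b itself, 1457666_s_at (slope 0.91), 1451567_a_at (1.02), 1452348_s_at (0.51 ± 0.061, adjusted p = 9.19e-08) and Ifi204 (0.33 ± 0.058, 0.00084). A further 11 named 1 other gene each, and 5 had no single gene named here.

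Those 11 probe sets came from 9 genes, 8 of them on chromosome 1. Nvl, an AAA ATPase of ribosome assembly, fell by 0.22 (SE 0.022; limma, adjusted p = 2.97e-10) on 1453018_at and by 0.14 (SE 0.018, 6.27e-07) on 1453019_at. Usf1, a transcription factor, rose by 0.15 ± 0.031 (0.0117), and Fcgr4 by 0.12 ± 0.023 (0.0117). Uhmk1, a kinase, fell by 0.096 (SE 0.017, 0.00154), Tada1 by 0.088 (SE 0.018, 0.0196) and Sde2 by 0.15 (SE 0.032, 0.0233). Vamp4, a vesicle fusion protein, rose on 1434796_at (0.14 ± 0.023, 0.000317) and fell by 0.081 on 1422895_at (SE 0.017, 0.0252). Rab7b rose by 0.32 ± 0.066 (0.0168). The exception off the chromosome was Clu on chromosome 14 (0.12 ± 0.026, 0.0335).

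By distance from Ifi202b, leaving out the Ifi200 members, 7 of 218 probe sets within 10 Mb were called (3.21%), 2 of 216 at 10 to 30 Mb (0.926%) and 1 of 214 at 30 to 60 Mb (0.467%). None of 663 farther along the chromosome was called, and 1 of 20653 on other chromosomes (0.00484%). With the interferon score in the model, a step chosen after seeing the data, 22 probe sets passed (0.0864%). Clu and Fcgr4 then missed the threshold (adjusted p = 0.2 and 0.107), Tmco1 passed it (slope 0.098, limma, adjusted p = 0.00784), and Ifi204 remained past it (0.25 ± 0.046, 0.00246). Called probe sets then numbered 7 within 10 Mb, 3 at 10 to 30 Mb, 2 at 30 to 60 Mb and 0 on other chromosomes.

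**Figure D4:**
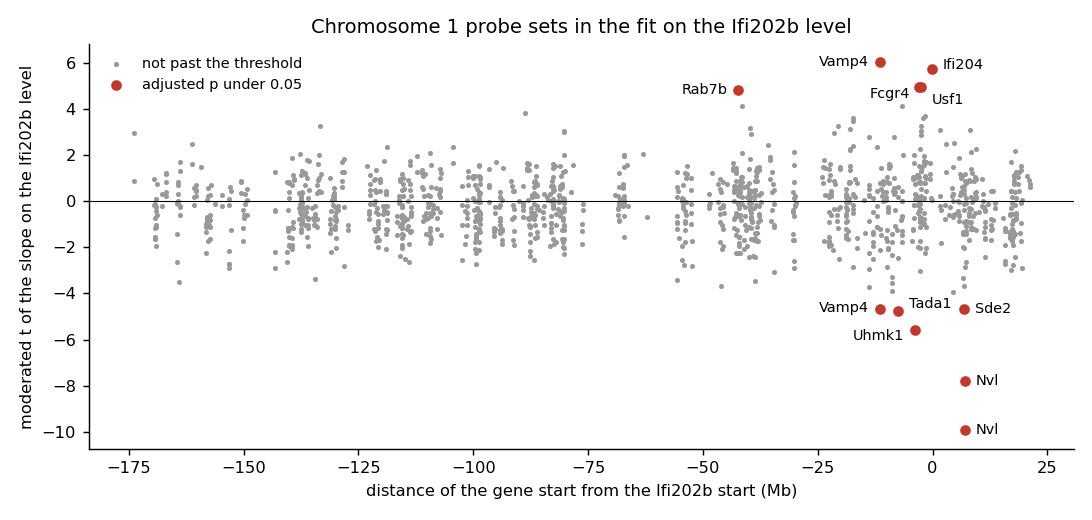
Moderated t of the slope on the Ifi202b level (y axis) for chromosome 1 probe sets with 1 gene, by distance of the gene start from the Ifi202b start in Mb (x axis), Ifi202b left out. Red points passed adjusted p 0.05; they lie within 60 Mb, and the lowest are the 2 Nvl probe sets, 7.12 Mb away.

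Nvl divided the tumours much as Ifi202b did. Its level on 1453018_at ran from 6.46 over a median of 6.86 to 7.67. A split of the Nvl level alone gave 31 low tumours (mean 6.69, SD 0.13) and 25 high (mean 7.26, SD 0.18), with D = 3.67. Of the 33 tumours in the upper Ifi202b band 30 were low for Nvl, and of the 23 in the lower band 22 were high, so 52 of 56 matched. On the second Nvl probe set, 1453019_at, 47 of 56 matched. For Tada1 48 of 56 matched, for Uhmk1 47, for Usf1 43, for Sde2 40 and for Fcgr4 38. Matches are counted in the better orientation, so 28 is the lowest possible count. These genes and Nvl were picked for their slopes on the Ifi202b level in the same tumours. Their matches are therefore a description and not independent evidence.

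Large D near the locus did not by itself mean the same division. The genes within 10 Mb with the largest D were Hnrnpu on 1450849_at (4.72, 12 low and 44 high tumours), Ncstn (4.57, 12 and 44), Sdhc (4.01, 15 and 41) and Mia3 (3.97, 35 and 21). Their splits matched the Ifi202b bands in 31, 31, 30 and 28 of 56 tumours. Tmco1 and a second Hnrnpu probe set, 1423051_at, were among the 8 genes within 10 Mb with the largest slopes by test but did not pass without the interferon score in the model (adjusted p = 0.104 and 0.202). The Tmco1 split matched the bands in 47 of 56 tumours and that of Hnrnpu 1423051_at in 41. Of 25 measured genes from a list of the strain-variable distal chromosome 1, 1 rose with Ifi202b on its brightest probe set, Fcgr4, whose call was lost with the interferon score in the model. Usf1 is also in that list, and its brightest probe set did not pass (0.17 ± 0.052, adjusted p = 0.586) where 1448805_at did.

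**Figure D5:**
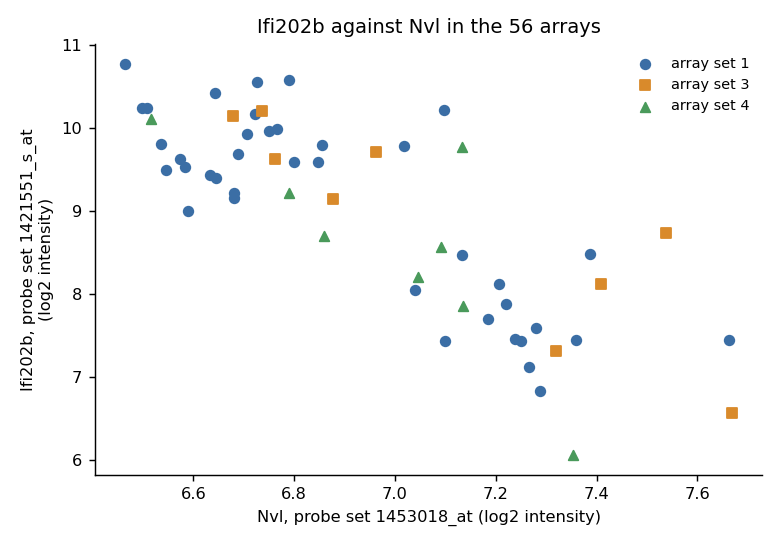
Ifi202b level on 1421551_s_at (y axis) against Nvl level on 1453018_at (x axis), both log2 intensity, 1 point per array, shaped by array set. Tumours with Ifi202b above 8.99 are mostly low for Nvl, and 52 of 56 fall on matching sides.

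The probe sets that list Ifi203 with other genes moved in different company. In the fit on Ifi202b, 1448775_at had a slope of -0.028 ± 0.049 (limma, adjusted p = 0.986) where 1451567_a_at had 1.02 ± 0.032 (5.47e-34). With Ifi204, 1448775_at rose by 0.38 ± 0.076 (0.00053). Fits on these probe sets in place of 1442828_at called 31 interferon list genes for 1448775_at, 24 for 1425008_a_at and 0 for 1451567_a_at. In all, these fits called 1147, 293 and 19 of 25459 probe sets. With 19 called, the 0 for 1451567_a_at says little about the interferon genes. Near-identical copies share probes in this family, so the transcript behind each value is uncertain.

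Probe set 1442828_at, listing Ifi203 alone, followed neither score nor Ifi202b, yet 2184 probe sets (8.58%) passed in the fit on its level. None of the interferon genes did (limma; 0 of 34). The nearest were Arfgap2 (r = 0.81), Srsf2 (0.75), Fbxw16 (0.74), Tff1 (0.74), Nkx2-9 (0.73), Cox8c (0.72), Tubb4a (0.71) and Tcl1b3 (0.71), which include genes of other tissues such as Nkx2-9 and Tcl1b3. Falling with it were Zfhx3 (slope -2.03 ± 0.35), Sike1 (-1.50), Anapc4 (-0.90) and Rnf139 (-0.88). The median slope over all probe sets was -0.16, the farthest from 0 of the 5 member fits.

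Macrophage genes rose with Fcgr2b, and so did markers of several other cell types. All 17 macrophage markers rose with 1435477_s_at, where 5.23% of probe sets rose and 7.05% moved either way, and 0 of 34 type I interferon genes and 2 of 14 interferon gamma response genes passed in the limma fit. Also rising were 8 of 9 fibroblast and matrix genes, 4 of 5 mast cell, 5 of 8 dendritic cell, 3 of 8 T and NK cell and 4 of 10 endothelial markers. Of 11 mammary epithelial markers 0 passed. Mpeg1 (0.75 ± 0.083; adjusted p = 3.28e-09) and Tyrobp (0.87 ± 0.10) led the list. The genes most like it were its neighbour Fcgr3 (r = 0.82; slope 0.86 ± 0.081, 1.64e-11), Ms4a6d (0.82), Cd300lb (0.79), the integrin Itgb2 (0.77), Lyz1 (0.77), Mpeg1 (0.77), Clec4n (0.76) and Ncf4 of the phagocyte oxidase (0.76). Yap1 (slope -0.31 ± 0.052), Lzic (-0.28), Ccnd1 (-0.37) and Tsn (-0.30) fell.

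B cells also carry Fcgr2b, and 8 of 14 B and plasma cell markers were measured, with array means from 4.40 over 4.78 to 7.16. Of these, Jchain (1.82 ± 0.40; limma, adjusted p = 0.00132) and Bank1 (0.77 ± 0.23, 0.0294) rose with Fcgr2b, and 6 did not pass. Macrophage marker means ran from 7.68 over 8.84 to 9.74. The part of these cell types in the Fcgr2b level was not tested.

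Markers of several leukocytes and of stroma also rose with Aim2, although it was dim. Of 17 macrophage markers 11 rose with it, of 34 interferon genes 5, of 8 B cell markers 5, of 8 T and NK cell markers 5, of 8 dendritic cell markers 4 and of 9 fibroblast and matrix genes 6, where 3.49% of probe sets rose and 5.66% moved either way. Of 14 interferon gamma response genes 5 rose, of 10 endothelial markers 1 and of 11 mammary epithelial markers 0. The part of these cell types in the Aim2 level was not tested. Csf1r rose by 1.57 ± 0.24 log2 units per unit of Aim2 (limma, adjusted p = 4.34e-05). The most like were Marchf1 (r = 0.71), the costimulatory Cd86 (0.71), AI662270 (0.70), Otulinl (0.70), Themis2 (0.70), Ms4a6b (0.69), Laptm5 (0.69) and Cd53 (0.69), mostly genes of leukocytes. Pphln1 (slope -0.73), Lin7c (-0.62), D10Wsu102e (-0.70) and Abcc1 (-1.23) fell. Of 15 DNA sensing and inflammasome genes 4 rose and 11 did not pass. The inflammasome products Il18 (0.74 ± 0.17, 0.00472) and Il1b (0.89 ± 0.23, 0.0115) and the pore protein Gsdmd (0.52 ± 0.13, 0.0129) rose. Since Aim2 varied little, slopes per unit of it are large. Of the interferon genes called with Aim2 in the limma fit, none passed in array set 1 alone or without the 2 tumours farthest from the Aim2 median.

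Correlations among Ifi203 (1442828_at), Ifi204, Aim2 and Fcgr2b and with both scores made 14 pairs, tested by permutation (100000 draws, two-sided, adjusted over the 14). None is given for Ifi202b because of its bands. Ifi204 and Aim2 correlated at r = 0.54 (rho = 0.47, adjusted permutation p = 0.000105 and 0.00129), Aim2 and Fcgr2b at 0.46 (rho = 0.37, 0.000887 and 0.0122), and Ifi204 and Fcgr2b at 0.33 (rho = 0.30, 0.022 and 0.0446). Without the 2 arrays farthest from the median of the x axis these were 0.47, 0.41 and 0.32. Within array set 1 they were 0.49, 0.38 and 0.15, within set 3 0.84, 0.78 and 0.47, and within set 4 0.47, 0.53 and 0.59. The relation of Ifi204 to Fcgr2b was thus weak in the largest set. Ifi203 1442828_at had r between -0.0024 and 0.083 with all of these (adjusted permutation p for r of at least 0.764). Its r differed in sign between array sets, from -0.21 to -0.078 in set 1, from 0.42 to 0.65 in set 3 and from -0.26 to 0.57 in set 4.

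For neither title label did a member difference pass the threshold. Against tumours without it, those with the suffix R in their title (8 arrays used) differed by -0.037 ± 0.45 in Ifi202b (limma, adjusted p = 0.956) and by -0.23 ± 0.24 in Ifi204 (0.454). Those with an animal number above 4000 (15 arrays) differed from the rest by -0.20 ± 0.35 and -0.14 ± 0.19 (0.71 and 0.639). None of the 11 tested member probe sets passed for either, while 42.5% and 24.3% of all probe sets did. Fcgr2b 1455332_x_at came closest (-0.31 ± 0.13, adjusted p = 0.0519, suffix R). All 8 arrays with suffix R make up array set 3 but for 1 array, so suffix and array set cannot be told apart. Of the 15 upper numbers, 8 were all of array set 4, 3 were in set 3 and 4 in set 1. The slopes on interferon did not pass a test of difference between the number ranges for any probe set in the limma fit (0%; 1108 at an unadjusted p under 0.05).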

How the data were processed

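Tumour RNA was prepared with Trizol followed by RNeasy kits, labelled with biotin and read on 68 Affymetrix arrays (per the labels' protocols). The deposited values are log2 intensities made by the authors with RMA, per the submitters' processing notes; its version and settings are not given in the sources used here. RMA shares information between arrays, so arrays left out here still shaped the values. Depth has no meaning for arrays, and the number of arrays limits the precision.

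The 56 arrays with a mean over 3 18S control probe sets below 8 were used. Probe sets whose 95th percentile exceeded the median of all values were tested (25459 of 45101). Of all probe sets 34958 listed 1 gene, 932 several and 9211 were not in the annotation table. Each score is the mean of standardised levels of a list's measured genes (brightest probe set each), scaled to SD 1. Levels were regressed on a score, on a member's level or on title classes with limma 3.58.1 (R 4.3.3), Benjamini-Hochberg adjusted over all tested probe sets. Splits were scored by Ashman's D, and neither side could hold under 20% of the arrays. The fits were tested on simulated data. The members, lists and tests were chosen with earlier results of these data known. Named genes were, for each member fit, the 8 called genes with the largest positive and the 4 with the largest negative t, up to 4 examples per list, all measured HIN-200 and Fc list genes, and the 8 genes within 10 Mb of Ifi202b with the largest t and the 4 with the largest D. Other called genes of the Ifi202b fit are named because they are few, after their values were seen. Alternatives covered the arrays used, the filter, centring, normalization, covariates, ranks and other probe sets.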

Additional observations from a re-analysis of the deposited data

How the results depend on the processing

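No paired analysis was possible because all arrays form 1 group. Over 154 results 1360 alternative values were computed, of which 974 for single genes and 220 for the main results were taken as unchanged. A slope or D was unchanged if it kept direction and side of the threshold, or lay past it under neither setting (27 with another sign). A count of called probe sets or genes was unchanged if its size stayed close to the main count. Among single genes 70 values lost the call and 18 gained it, and the cause of the changes below was not tested. Probe sets past adjusted p 0.05 in the interferon fit (800) numbered 9188 over all 68 arrays, 341 in array set 1, 1428 with array sets as a block, 1608 with suffix and number range as covariates and 1575 with the interferon gamma score. The macrophage fit (6403) gave 15910 over 68 arrays, 3415 in set 1 and 4152 without the 2 arrays farthest from the median of the x axis. The Ifi204 fit (2325) gave 1133 over 68 arrays, 414 in set 1, 679 without 2 arrays and 948 on ranks, and its 33 interferon list genes became 0 with 1452348_s_at. The Ifi202b fit (21) gave 32 with no filter. The Ifi203 fit (2184) gave 286 over 68 arrays, 6236 with no filter, 4950 with the block, 1366 without 2 arrays, 293 with 1425008_a_at, 1147 with 1448775_at and 19 with 1451567_a_at, and its 0 interferon list genes became 24 with 1425008_a_at and 31 with 1448775_at. The Aim2 fit (1440) gave 18980 over 68 arrays, 363 in set 1, 816 centred, 403 without 2 arrays and 444 on ranks, and its 5 interferon list genes became 0 over 68 arrays, 0 in set 1, 3 with no filter, 2 centred, 0 without 2 arrays and 1 on ranks. The Fcgr2b fit (1794) gave 988 in set 1, 1002 without 2 arrays, 4152 with 1435476_a_at and 1165 with 1451941_a_at. Probe sets with D over 4.5 (117) numbered 448 over 68 arrays and 324 with at least 10% on the smaller side. D of Ifi202b (3.63) was 4.61 in set 1 and 5.28 with the interferon score removed. Its interferon slope (0.34) passed over 68 arrays (0.38; limma, adjusted p = 0.0195) and with Nvl as a covariate (0.37, 0.00243), and its macrophage slope (0.31) over 68 arrays (0.32, 0.0327). Named slopes changed sign as follows, none past the threshold in its new direction (lowest limma adjusted p = 0.0849, for Ncf4). On 1425008_a_at in place of Ifi203 1442828_at they were Arfgap2 -0.0845, Tff1 -0.0297, Srsf2 -0.0452, Fbxw16 -0.0451, Nkx2-9 -0.112, Tcl1b3 -0.0478, Cox8c -0.0894, Tubb4a -0.0924, Rnf139 0.146, Anapc4 9.06e-05 and Sike1 0.0752. On 1448775_at they were Srsf2 -0.0203, Nkx2-9 -0.0501, Cox8c -0.0192 and Rnf139 0.0607, and on 1451567_a_at Srsf2 -0.0113, Tubb4a -0.00287 and Rnf139 0.00471. On Aim2 over 68 arrays they were Marchf1 -0.138, Otulinl -0.177 and Laptm5 -0.376. On Fcgr2b 1447622_at they were Fcgr3 -0.999, Ms4a6d -0.265, Cd300lb -0.674, Itgb2 -1.01, Lyz1 -0.826, Mpeg1 -0.722, Clec4n -0.592, Ncf4 -0.741, Yap1 0.271, Lzic 0.198, Ccnd1 0.441 and Tsn 0.376. Aim2, Fcgr2b 1447622_at and 1425008_a_at were dim, which limits what their slopes show.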

Other observations

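The 12 arrays left out for their 18S controls held some of the transcripts at other levels. Ifi203 1442828_at had a mean of 6.11 in them as in the arrays used. Ifi202b 1421551_s_at ran from 6.31 to 9.54 in them and Aim2 from 3.53 to 4.35. The dim Fcgr2b probe set 1447622_at ran from 5.12 over a median of 5.87 to 6.47 in them. The 56 arrays used lay between 2.21 and 3.01, so the ranges did not overlap. Such a separation was not particular to Fcgr2b, as 2428 probe sets on 22 chromosomes divided these 12 arrays from the others without overlap.

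Animals 3296 and 3351 each had a second array, with the suffix R, among those left out. In animal 3296 Ifi202b was 8.47 on the array used and 7.58 on the other, Ifi204 was 6.24 and 5.33, and Nvl was 7.13 and 6.68. In animal 3351 Ifi202b was 9.40 and 8.85, Ifi204 was 5.46 and 5.397, and Nvl was 6.64 and 6.46. Both animals were lower for Ifi202b and Nvl on the array with the 18S signal.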
